A study of Homo sapiens with 6 samples.

Results

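The ISG15 conjugation system was described here through 6 genes: ISG15, which encodes the ubiquitin-like modifier itself, UBA7, UBE2L6 and HERC5, which encode the enzymes that attach it, HERC6, a close relative of HERC5, and USP18, which encodes the protease that removes it. The members were chosen by gene symbol, matched to Ensembl identifiers with the version removed, and all 6 had a row among the 57820 human genes of the deposited table. The 6 RNA samples are of HCT116, a human colorectal cancer cell line in wide use. The DKO1 samples (n = 3) came from a derivative that the submitters describe as HCT116 with DNMT1 and DNMT3B knocked out, and the WT samples (n = 3) came from HCT116 without these knockouts. Culture was in McCoy's 5A with foetal bovine serum for both, and neither the labels nor the protocols name an interferon or drug treatment. The DKO1 samples share 1 derived line, and what follows from the missing genes therefore cannot be told apart from any further change that this line carries. Replicates are numbered 1 to 3 in each line, with no word on whether each was a culture of its own. The p-values therefore reflect only how much these samples vary, and that spread may be technical.

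ISG15 is induced by type I interferon and is joined to lysines of other proteins by a cascade like that of ubiquitin. The E1 enzyme UBA7 activates the modifier, the E2 enzyme UBE2L6 carries it, and the E3 ligase HERC5 passes it to newly made proteins at the ribosome. USP18 cleaves ISG15 from its targets and, apart from that activity, binds the interferon receptor subunit IFNAR2 and dampens signalling. Free ISG15 can also be secreted as a cytokine. DNMT1 copies DNA methylation after replication and DNMT3B adds it at unmethylated CpG sites.

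Levels are given as TPM, the authors' transcript abundance corrected for gene length, so different genes can be set side by side. TPM adds up to a fixed total in any sample, which hides how deeply it was sequenced, and a detection floor cannot be given. In bulk RNA a change in the share of expressing cells and a change in RNA per cell cannot be told apart. The targeted gene DNMT1 was at 31.1, 30.8 and 46.8 TPM in DKO1 and between 231 and 249.97 TPM in WT, and DNMT3B at 4.86, 4.85 and 3.56 TPM in DKO1 and 8.22, 7.09 and 6.77 TPM in WT, so both were lower in every DKO1 sample. All 6 epithelial markers examined passed the filter on low values (1 TPM in 3 or more samples), and their TPM summed to 700.4 to 932 in DKO1 and 940.1 to 1176 in WT, with EPCAM at 371 TPM or more in every sample. CDH1 (9.82 ± 0.28 TPM in DKO1 and 2.97 ± 0.49 TPM in WT, limma adjusted p = 0.000418) and CLDN4 (5.41 ± 0.60 TPM in DKO1 and 2.32 ± 0.37 TPM in WT, adjusted p = 0.00436) were called higher in DKO1. None of the other 4 epithelial markers was called, and with the replicate number as a block KRT8 and KRT18 were called lower (adjusted p = 0.011 and 0.047). KRT8 was also called lower under median-ratio scaling (limma adjusted p = 0.0175), and KRT19 was called higher without DKO1 replicate 2 (0.0479). None of 5 blood cell markers or 4 fibroblast markers passed that filter, and their summed TPM was higher in DKO1 for both lists (1.3 to 1.5 in DKO1 and 0.24 to 0.52 in WT for blood cells, 2.48 to 2.94 in DKO1 and 0.47 to 1.06 in WT for fibroblasts); of them only the blood cell marker PTPRC was at 0 in every WT sample. Their part in the results was not tested. Mitochondrially encoded transcripts took 21.2% to 27.7% of the TPM in DKO1 and 19.7% to 20.1% in WT.

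Transcripts for the modifier, the E2, both HERC genes and the protease were higher in DKO1, while the E1 transcript was near 0 in both lines. Only genes that reached 1 TPM in 3 or more samples were tested, by limma on log2(TPM + 1), with Benjamini-Hochberg adjustment over all 13604 tested genes and a call at an adjusted p below 0.05. Of the 6 members 5 passed the filter. ISG15 passed only because its 3 DKO1 values reached 1 TPM while no WT value did, which fixed its direction and the separation of its groups, so it stays out of the counts that follow. The other 4, UBE2L6, HERC5, HERC6 and USP18, were at 1 TPM or more in every sample, and all 4 were called higher in DKO1, where 18.8% of all tested genes were called higher and 9.6% lower (28.4% in either direction). The median log2 fold change of these 4 was 1.26 and that of all tested genes 0.07. In each of the 4 every DKO1 value lay above every WT value, a separation in this direction that held for 27.5% of all tested genes (45.4% in either direction). The shares and the median of all tested genes also cover genes that, like ISG15, reached 1 TPM in DKO1 only, so the sets compared differ. A positive log2 fold change means higher in DKO1, SE is limma's standard error, and this scale understates the change of genes at low TPM.

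**Figure D1:**
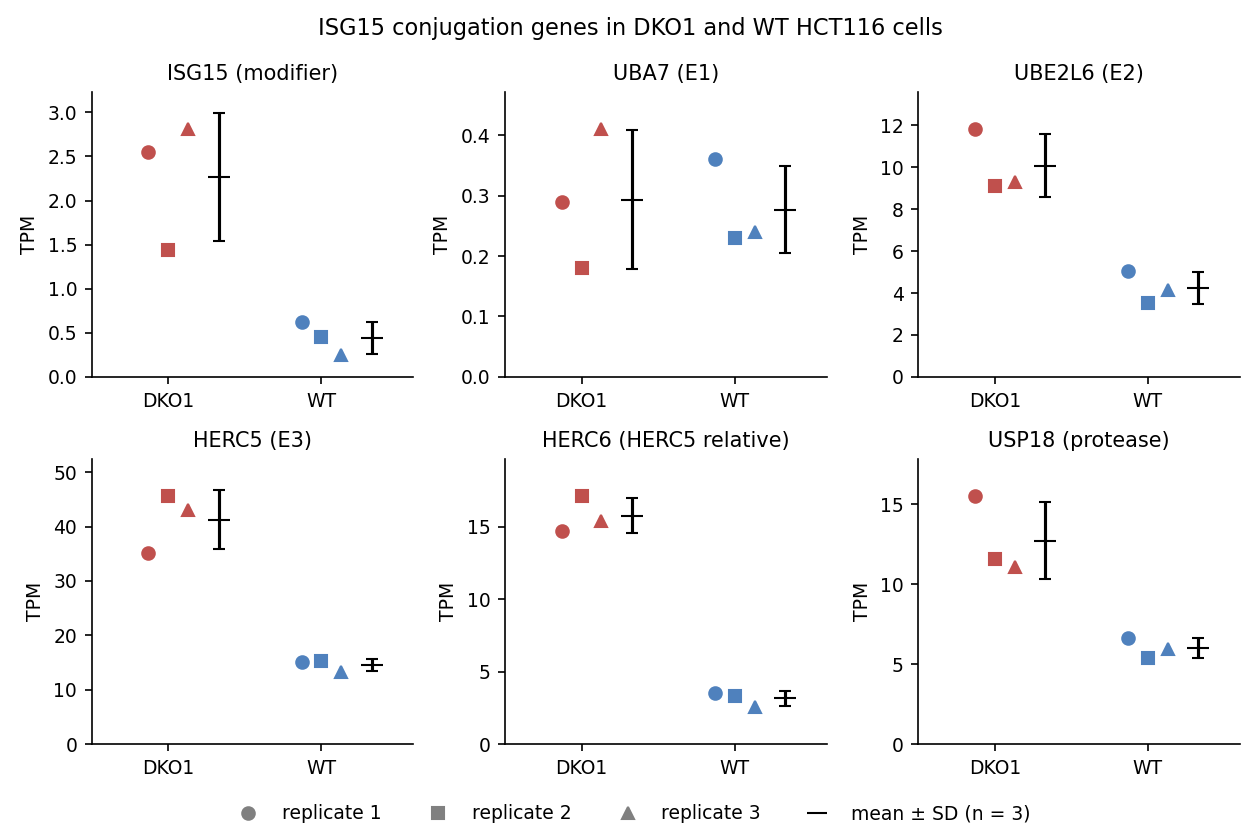
TPM of the 6 genes of the ISG15 system in each sample (y axes, TPM, linear from 0 and different for each panel), with DKO1 samples left of WT samples; marker shapes give the replicate number and black bars the mean ± SD (n = 3). DKO1 points lie above all WT points in every panel but that of UBA7, where all 6 values are between 0.18 and 0.41 TPM.

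The 250 bases before the RefSeq transcript start of 4 of the 6 members are shown because transcripts of these genes were higher together in cells described as lacking 2 enzymes that methylate CpG sites, and because interferon acts on such genes through a known promoter element. Windows matched by symbol were found for ISG15, HERC5, HERC6 and UBE2L6, not for USP18 or UBA7. Capitals mark matches to the 10-letter core of the interferon-stimulated response element, which is GAAA, any 2 bases and GAAA again; both strands were searched, and on the other strand it reads TTTC, any 2 bases and TTTC. All sequences are from RefSeq on GRCh38.p14, 5′ to 3′ along the gene, at chr1:1013247-1013496 (plus strand) for ISG15, chr4:88456869-88457118 (plus strand) for HERC5, chr4:88378602-88378851 (plus strand) for HERC6 and chr11:57567936-57568185 (minus strand) for UBE2L6. They describe the reference and not the DNA of these lines.
ISG15: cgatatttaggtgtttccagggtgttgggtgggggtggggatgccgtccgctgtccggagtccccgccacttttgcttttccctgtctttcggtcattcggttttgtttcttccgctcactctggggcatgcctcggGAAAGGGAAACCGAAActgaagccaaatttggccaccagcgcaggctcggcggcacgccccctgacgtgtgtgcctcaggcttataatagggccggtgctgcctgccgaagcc
HERC5: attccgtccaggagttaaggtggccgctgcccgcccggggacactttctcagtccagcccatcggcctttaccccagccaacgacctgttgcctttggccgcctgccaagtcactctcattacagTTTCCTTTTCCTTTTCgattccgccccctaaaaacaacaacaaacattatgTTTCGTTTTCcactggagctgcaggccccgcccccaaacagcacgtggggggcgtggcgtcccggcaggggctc
HERC6: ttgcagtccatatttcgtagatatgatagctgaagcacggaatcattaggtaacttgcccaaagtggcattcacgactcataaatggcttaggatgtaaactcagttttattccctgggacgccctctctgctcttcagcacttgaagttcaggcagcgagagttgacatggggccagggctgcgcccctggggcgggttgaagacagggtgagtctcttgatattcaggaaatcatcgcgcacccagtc
UBE2L6: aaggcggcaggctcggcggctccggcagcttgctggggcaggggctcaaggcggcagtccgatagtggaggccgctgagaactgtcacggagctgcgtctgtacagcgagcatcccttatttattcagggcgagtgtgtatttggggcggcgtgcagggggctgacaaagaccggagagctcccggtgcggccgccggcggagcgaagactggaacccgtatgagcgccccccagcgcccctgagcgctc

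The ISG15 window held 2 matches, beginning 113 and 107 bases before the start and overlapping by 4 letters. The HERC5 window held 3 matches, all on the strand opposite to the gene, beginning 125, 119 and 74 bases before the start, and the first 2 of them overlapped by 4 letters. No match lay in the windows of HERC6 or UBE2L6, nor in the window before a second RefSeq start of UBE2L6, which says only that these letters are absent from these 250 bases. Of 35116 RefSeq windows of the same length, 3.02% held at least 1 match and 0.225% at least 2, counted the same way. CpG sites numbered 17 in the ISG15 window, 15 in that of HERC5, 9 in that of HERC6 and 24 in the printed window of UBE2L6 and 36 in the one before its second start, against a median of 11 over all windows. A count at least as high was found in 38.95% of all windows for ISG15, 42.9% for HERC5, 54.1% for HERC6 and 23.7% and 4.85% for the 2 windows of UBE2L6. The methylation of these sites is not part of the RNA table, and the matches are descriptions of sequence.

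**Figure D2:**
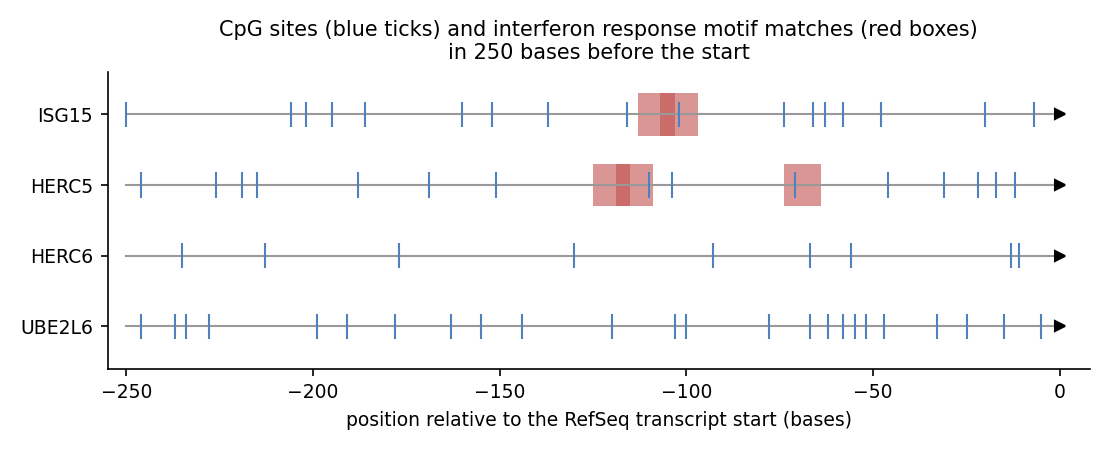
CpG sites (blue ticks) and matches to the interferon response core (red boxes, darker where 2 overlap) in the 250 bases before the RefSeq start of 4 members; the x axis is the position in bases relative to the start, drawn as an arrowhead at 0. ISG15 has 2 overlapping matches and HERC5 has 3, 2 of which overlap, while HERC6 and UBE2L6 have none.

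ISG15 (ENSG00000187608.5, chromosome 1), the modifier, was at 2.55, 1.44 and 2.81 TPM in DKO1 and at 0.62, 0.45 and 0.25 TPM in WT. The groups did not overlap, which follows from how ISG15 passed the filter: every DKO1 value reached 1 TPM and no WT value did. The log2 fold change was 1.16 (SE 0.21, 95% interval 0.68 to 1.65, limma adjusted p = 0.00528). Because the gene was tested only through its DKO1 values, this p-value is no separate support for a rise. The limma fit without the filter, where that selection does not apply, gave an adjusted p of 0.0171. Because the WT mean was 0.44 ± 0.19 TPM (SD, n = 3), no ratio of TPM is given. The size of the change depended on scale at these low values. It came to 2.14 when the pseudocount was 0.1 and to 0.60 under quantile normalization (limma adjusted p = 0.00548 and 0.0383). Both of these fits used the same filter. Even in DKO1, at 2.27 ± 0.73 TPM (SD, n = 3), ISG15 was above only 15.5% of tested genes in mean TPM, against 5.99% in WT. An antisense gene that GENCODE 29 places across ISG15 was at most 0.12 TPM in DKO1 and listed at 0 in WT.

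UBA7 (ENSG00000182179.6, chromosome 3), the E1 enzyme at the head of the cascade, was the member whose groups did not separate. It was at 0.29, 0.18 and 0.41 TPM in DKO1 and at 0.36, 0.23 and 0.24 TPM in WT. The groups overlapped fully, no sample reached 1 TPM, and the gene therefore stayed out of the main test. In a fit without the filter its log2 fold change was 0.02 (95% interval −0.19 to 0.23, limma adjusted p = 0.903), and at such levels a difference could not be resolved. UBA1, the main E1 enzyme of ubiquitin, was at 53.4, 26.5 and 55.6 TPM in DKO1 and at 44.6, 29.6 and 37.6 TPM in WT.

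UBE2L6 (ENSG00000156587.11, chromosome 11), the E2 enzyme that receives ISG15 from UBA7, was at 11.8, 9.09 and 9.30 TPM in DKO1 and at 5.03, 3.54 and 4.16 TPM in WT. All DKO1 samples were higher than all WT samples, and the ratio of the means was 2.37 (log2 fold change 1.08, SE 0.18, limma adjusted p = 0.00383). UBE2L3, its closest E2 relative and an enzyme of the ubiquitin pathway, was at 133, 108 and 138 TPM in DKO1 and at 130.3, 123 and 132 TPM in WT, and did not pass (log2 fold change −0.03, 95% interval −0.32 to 0.26, adjusted p = 0.884). Within samples, log2(TPM + 1) of UBE2L6 minus that of UBE2L3 averaged −3.53 ± 0.20 in DKO1 and −4.63 ± 0.17 in WT (SD, n = 3 each), a difference of 1.11. An exact two-sided permutation test gave p = 0.1, the smallest that 3 against 3 samples allow, and 0.25 after adjustment over the 5 pairs of this kind.

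HERC5 (ENSG00000138646.4, chromosome 4), the main ligase for ISG15 in human cells, was the most abundant member in both lines. It was at 35.2, 45.5 and 43.0 TPM in DKO1 and at 15.1, 15.3 and 13.2 TPM in WT, a ratio of means of 2.83 (log2 fold change 1.44, SE 0.14, limma adjusted p = 0.000322). HERC5 held 43.9% to 53.6% of the summed TPM of the 6 members in DKO1 and 48.3% to 54.2% in WT, so these shares overlapped.

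HERC6 (ENSG00000138642.10, chromosome 4) lies next to HERC5, and its mouse counterpart is the main ISG15 ligase of that species. Measured as log2(TPM + 1), which shrinks changes at low TPM such as that of ISG15, it had the largest fold change of the 5 tested members. It was at 14.8, 17.1 and 15.4 TPM in DKO1 and 3.55, 3.35 and 2.58 TPM in WT. The ratio of means was 4.99 (log2 fold change 2.02, SE 0.16, 95% interval 1.64 to 2.39, limma adjusted p = 0.000102). HERC6 was 18.4% to 20.1% of the summed TPM of the 6 members in DKO1 and 9.78% to 11.8% in WT, with no overlap. Within samples, log2(TPM + 1) of HERC5 minus that of HERC6 averaged 1.33 ± 0.11 in DKO1 and 1.91 ± 0.08 in WT (SD, n = 3 each). The difference of −0.58 had the same sign in every comparison of a DKO1 with a WT sample, and the exact two-sided permutation p was 0.1, the smallest possible (0.25 adjusted over 5 pairs).

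USP18 (ENSG00000184979.9, chromosome 22), the protease that takes ISG15 off its targets, was at 15.5, 11.6 and 11.1 TPM in DKO1 and at 6.65, 5.41 and 5.96 TPM in WT. The groups did not overlap, and the ratio of means was 2.12 (log2 fold change 0.96, SE 0.17, limma adjusted p = 0.00597). The level of USP18 is uncertain because its sequence is partly shared with USP41, a close copy on the same chromosome: of the 75-base stretches in GENCODE 29 transcripts of USP18, 18.3% also occur in USP41. USP41 was at 12.2, 12.1 and 12.7 TPM in DKO1 and at 0.30, 9.50 and 11.1 TPM in WT, so WT replicate 1 stood apart from the other WT samples, and USP41 was not called (adjusted p = 0.262). The 2 genes together made 27.7, 23.7 and 23.7 TPM in DKO1 and 6.95, 14.9 and 17.1 TPM in WT. Summed as 1 gene they had a log2 fold change of 0.98 (SE 0.30, limma adjusted p = 0.046), and of 0.62 (adjusted p = 0.0507) without WT replicate 1, which ends the call. How reads were divided between the copies was not tested. No other member shared more than 0.704% of its 75-base stretches with another gene.

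**Figure D3:**
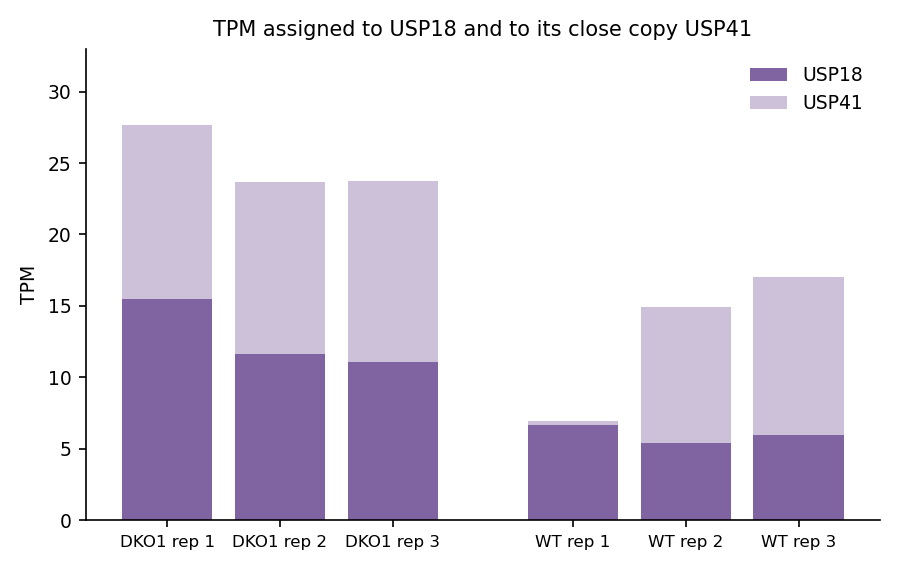
TPM assigned to USP18 (dark) and to its close copy USP41 (light), stacked, in each sample, with DKO1 samples left of WT samples; the y axis is linear TPM from 0. The dark bars are between 11.1 and 15.5 TPM in DKO1 and between 5.41 and 6.65 TPM in WT, and the light bar is nearly absent in WT replicate 1 (0.30 TPM).

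The order of the levels was not the same in both lines. In DKO1 mean TPM fell in the order HERC5, HERC6, USP18, UBE2L6, ISG15, UBA7, and the ranges of HERC6 and USP18, and of USP18 and UBE2L6, overlapped. In WT the order was HERC5, USP18, UBE2L6, HERC6, ISG15, UBA7, and the ranges of UBE2L6 and HERC6, and of ISG15 and UBA7, overlapped. The 5 enzymes other than the modifier, HERC6 included, summed to 77.5 to 83.5 TPM in DKO1 and 26.1 to 30.7 TPM in WT. In both lines HERC5, HERC6, USP18 and UBE2L6 each had a higher mean TPM than ISG15, and UBA7 had a lower one. The balance of ISG15 and USP18, as log2(TPM + 1) of ISG15 minus that of USP18, averaged −2.08 ± 0.37 in DKO1 and −2.29 ± 0.17 in WT (SD, n = 3 each; exact two-sided permutation p = 0.5). The difference of 0.20 was 1.08 with a pseudocount of 0.1 and −0.0051 without DKO1 replicate 3, so neither its size nor its sign is settled. USP18 minus the mean of UBA7, UBE2L6 and HERC5 on the same scale averaged 0.69 ± 0.25 in DKO1 and 0.58 ± 0.06 in WT (exact p = 0.7), and that difference of 0.12 was −0.023 without DKO1 replicate 1. UBA7 minus UBA1 averaged −5.09 ± 0.48 in DKO1 and −4.89 ± 0.23 in WT (exact p = 0.6). After adjustment over the 5 pairs each of these was 0.7. With 3 samples a line these tests cannot go below 0.1, and none of them shows that the balances were equal. UBA7, at 0.18 to 0.41 TPM in all samples, hardly varied as log2(TPM + 1), so the balances that include UBA7 mostly reflect the other genes.

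Related enzymes and modifiers outside the 6 members were read from the same fit. TRIM25 and ARIH1, other ligases reported for ISG15, did not pass (log2 fold changes 0.25 and −0.18, adjusted p = 0.192 and 0.351), and neither did any of the other HERC genes, HERC1 to HERC4 (0 of 4 called by limma, 0 at an unadjusted p below 0.05 and 0 with the replicate block). Of 7 other proteases reported to react with ISG15, 0 rose and 1 fell: USP13 was at 16.3 ± 0.58 TPM in DKO1 and 22.1 ± 1.48 TPM in WT (log2 fold change −0.41, limma adjusted p = 0.0423). That call was lost in 8 of 15 alternatives, among them all 6 that drop 1 sample. With the replicate number as a block USP16 also passed (−0.93, limma adjusted p = 0.0128, against 0.0671 without the block). Other settings gained calls in this list too. Under median-ratio scaling USP16 (adjusted p = 0.0276) and USP24 (0.0409) were called lower. Without DKO1 replicate 2 USP5 was called higher (0.77, 0.0393).

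Of 8 other E1 genes, 0 rose and 2 fell. NAE1, a subunit of the NEDD8 activating enzyme, was at 189.7 ± 57.0 TPM in DKO1 and 324 ± 32.3 TPM in WT (log2 fold change −0.81, limma adjusted p = 0.0325). UBA2, a subunit of the SUMO activating enzyme, was at 105 ± 13.3 TPM in DKO1 and 142 ± 5.01 TPM in WT (−0.44, adjusted p = 0.0331). These calls were lost in 5 and 8 of 15 alternatives, among them each fit without a WT replicate. The call of UBA6, an E1 for ubiquitin and the modifier FAT10, was gained with the replicate block (−0.55, adjusted p = 0.0452, against 0.0875 without it). It was also gained under median-ratio scaling (−0.62, adjusted p = 0.043). The ubiquitin-like modifiers included 1 rise and 1 fall among 10 tested. SUMO3 was at 80.6 ± 12.8 TPM in DKO1 and 51.9 ± 1.94 TPM in WT (log2 fold change 0.62, adjusted p = 0.0157), and RPS27A, a ubiquitin and ribosomal protein fusion, at 2315 ± 296 TPM in DKO1 and 3572 ± 177 TPM in WT (−0.63, adjusted p = 0.011). The call of SUMO3 was lost without any 1 of the WT replicates (adjusted p = 0.0511 to 0.0678), without replicate 2 of both lines (0.0773) and under median-ratio scaling (0.0593), and that of RPS27A without WT replicate 3 (0.061). With the block UBB, which encodes a chain of ubiquitin, also passed (−0.57, adjusted p = 0.0182, against 0.27 without it). FAU, from the same list, was called higher without DKO1 replicate 2 (0.64, adjusted p = 0.0409). UBD, which encodes the interferon-inducible modifier FAT10, was at 0.12, 0.04 and 0.15 TPM in DKO1 and listed at 0 in every WT sample, and was not tested. A difference between the ISG15 system and these lists was not tested.

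**Figure D4:**
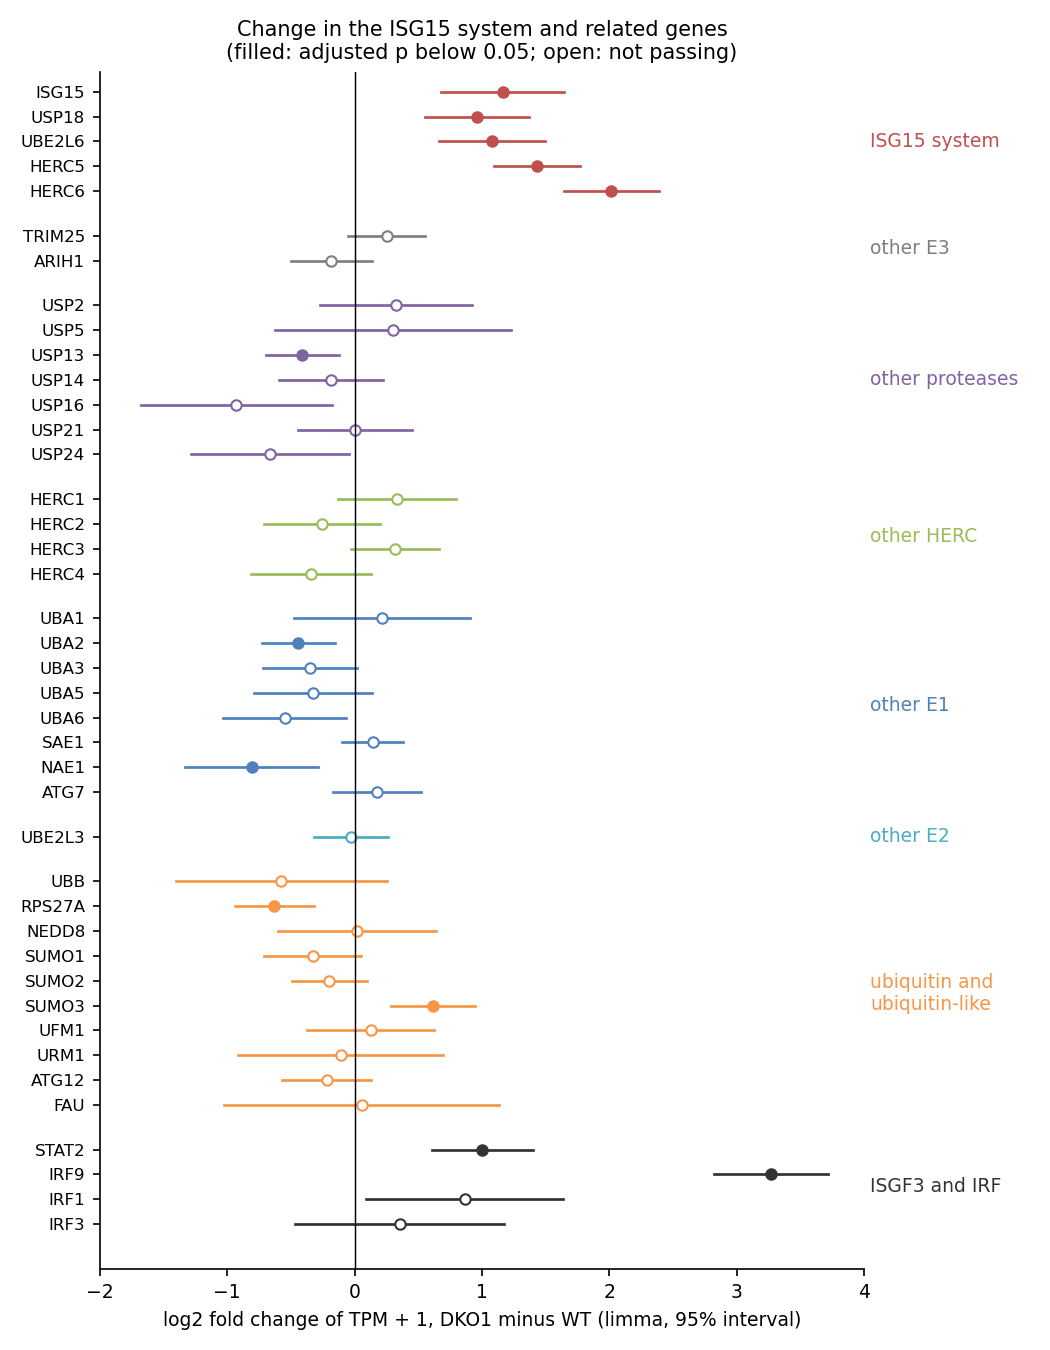
Log2 fold change of TPM + 1 (x axis, DKO1 minus WT, limma) with 95% intervals for the tested genes of the ISG15 system, of related enzyme and modifier lists and of the ISGF3 and IRF list; filled points have an adjusted p below 0.05. The 5 members lie between 0.96 and 2.02, and UBE2L3 lies at −0.03. ISG15, among these members, was tested only through its DKO1 values.

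Genes for the interferon-activated factors were read in the same way. STAT2 and IRF9 are subunits of ISGF3, the factor that binds the interferon response element, and both rose. IRF9 was at 58.1, 36.1 and 52.2 TPM in DKO1 and at 3.93, 4.11 and 4.16 TPM in WT, a ratio of means of 12.0 (log2 fold change 3.27, SE 0.19, limma adjusted p = 2.81e-05). STAT2 was at 27.4 ± 4.84 TPM in DKO1 and 13.1 ± 1.56 TPM in WT (log2 fold change 1.00, limma adjusted p = 0.00417). Of the other factors, IRF1 did not pass (log2 fold change 0.86, adjusted p = 0.0916) but did with the replicate block (0.0141), without DKO1 replicate 2 (0.0081) and without replicate 2 of both lines (0.0183). IRF3 did not pass (adjusted p = 0.498) and IRF7 stayed below 1 TPM in every sample. Among 6 genes linked to USP18 or to interferon receptor signalling, STAT2 and the kinase JAK1 rose and SKP2 fell. SKP2 is a ubiquitin ligase subunit reported to mark USP18 for degradation, not a partner at the receptor. It was at 39.7, 51.0 and 43.9 TPM in DKO1, against 77.8, 80.1 and 74.2 TPM in WT (log2 fold change −0.78, SE 0.13, limma adjusted p = 0.00328). The JAK1 call (log2 fold change 0.65, adjusted p = 0.0099) was lost without WT replicate 3 (0.052) and without replicate 2 of both lines (0.0568). IFNAR1, IFNAR2 and TYK2 did not pass (adjusted p = 0.558, 0.0981 and 0.516).

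Transcripts of interferons themselves were scarce. None of 9 interferon genes passed the filter, and 8 of them were listed at 0 in every WT sample. IFNB1, which encodes interferon beta, was at 0.53, 0.44 and 0.26 TPM in DKO1 and listed at 0 in WT, IFNL1, a type III interferon, was at 0.36, 0.16 and 0.10 TPM in DKO1 and listed at 0 in WT, and IFNA1 was at 0.10, 0.10 and 0.05 TPM in DKO1 and listed at 0 in WT. These 3 and IFNE were above 0 in every DKO1 sample. IFNE was at 0.43, 0.37 and 1.18 TPM in DKO1 and at 0.40, 0.30 and 0.28 TPM in WT. It alone of the 9 was above 0 in WT. IFNK and IFNG were listed at 0 in all 6 samples. ITGAL and ITGB2, the subunits of LFA-1, the receptor of secreted ISG15, were at most 0.45 TPM in DKO1 and at most 0.18 TPM in WT.

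The genes whose profile over the 6 samples was most like the mean z-score of the 5 tested members were NDRG1, ADAM19, GPRC5A, SV2A and MAGEB1, with Pearson r from 0.999 to 1.000 over 6 samples. NDRG1 was at 79.4, 60.7 and 68.5 TPM in DKO1 and 16.1, 12.6 and 11.8 TPM in WT. The correlation is a description, since the samples fall into 2 lines and 1548 of the 13599 genes compared had r above 0.95.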

How the data were processed

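RNA of 3 DKO1 and 3 WT samples was read as stranded messenger RNA libraries. The authors deposited TPM per gene, rounded to 2 decimals and scaled to the same total in each sample; the table includes 77 rows that are not human genes and look like spike-ins. The builds hg19 and GRCh37 and the tools RSEM 1.2.21, STAR 2.5.3a, edgeR 3.12.1, Trim Galore 0.4.0 and FastQC stand in the submitters' processing notes without role or order. Neither the annotation nor the strand setting is given in the sources used here. Symbols came from a reference gene table by Ensembl identifier (51996 human rows matched), and overlaps from GENCODE 29.

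Tests across genes used limma 3.58.1 with R 4.3.3 on log2(TPM + 1), with a trend in the variance prior and the cell line as sole term, and was tested on simulated data. Pairs of genes were compared with exact permutation tests (scipy 1.17.1). Deviations of same-numbered samples correlated over genes at 0.35, 0.572 and 0.267, and those of differently numbered samples at −0.383 to 0.128. The numbers may therefore pair the samples, which comes from the data, not the labels. The main fit and the permutation tests did not use this pairing, and the replicate block is the alternative that does. Alternatives were pseudocount, filter, scaling, trend, block, leaving out samples, and summing USP18 with USP41. Leaving out replicate 2 of both lines and combining the sum with a block or without WT replicate 1 were added after seeing the data. Members and lists were chosen with earlier results of these data known. All 6 members were named, with up to 3 called genes of each list, those needed for small counts, and values of relatives set beside a member. Protein sequences were not used here, and some listed genes are not reported here.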

Additional observations from a re-analysis of the deposited data

How the results depend on the processing

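The 4 members at 1 TPM or more in every sample kept their call and direction in every alternative, except USP18 summed with USP41 and without WT replicate 1 (0.62, limma adjusted p = 0.0507). ISG15 was called in all 14 alternatives that tested it. Apart from the fit without a filter, those tested it only through its DKO1 values and add no support. ISG15 could not be tested above a mean of 5 TPM, which left 4 called members. UBE2L6 and HERC6 passed that filter only through DKO1 (means 10.1 and 15.8 TPM, against 4.24 and 3.16 TPM in WT). That fit therefore adds no support for UBE2L6 or HERC6. Leaving out samples gave log2 fold changes of 1.04 to 1.37 for ISG15, 0.97 to 1.18 for UBE2L6, 1.36 to 1.54 for HERC5, 1.91 to 2.08 for HERC6 and 0.82 to 1.04 for USP18 counted alone. With the replicate block the calls of the 4 held (limma adjusted p from 0.000223 for HERC6 to 0.00361 for USP18). ISG15 was at 0.0057, and the block changed no call of a member. With a pseudocount of 0.1 the difference between lines was 1.08 for ISG15 over USP18 and −0.80 for HERC5 over HERC6. Leaving out samples gave −0.0051 to 0.35 for ISG15 over USP18, whose sign turned without DKO1 replicate 3, and −0.023 to 0.22 for USP18 over the mean of the conjugation enzymes, whose sign turned without DKO1 replicate 1; the cause was not tested. Over all genes, 2558 were called higher and 1306 lower; leaving out 1 sample gave 1705 to 2842 higher and 524 to 2079 lower, leaving out replicate 2 of both lines 2032 and 492, no filter 4400 and 1098, and a mean of at least 5 TPM 1145 and 1077. Calls were higher in DKO1 for 66.2% of called genes, and for 48.4% under quantile normalization, which shifted the median of all genes by −0.139, and 80% without a filter. Depth is unknown for TPM, so no limit is given for ISG15 in WT, UBA7 or the interferon genes.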

Other observations

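The neighbours of the members along the chromosome, 30 genes taken as the 3 with a row on either side of each member in RefSeq order, gave 8 tested genes, of which 2 were called higher and 0 lower, where 18.8% of all tested genes were called higher and 9.6% lower. SERPING1, the inhibitor of complement component C1 and a neighbour of UBE2L6, was at 3.97, 3.12 and 4.46 TPM in DKO1 and at 2.15, 0.87 and 1.06 TPM in WT (log2 fold change 1.07, SE 0.23, limma adjusted p = 0.0129). PPM1K, a mitochondrial phosphatase gene near HERC6, was at 7.13, 6.74 and 6.52 TPM in DKO1 and at 3.73, 4.36 and 3.18 TPM in WT (log2 fold change 0.72, SE 0.16, adjusted p = 0.0132). On the other side of HERC5, PYURF averaged 155.2 TPM in DKO1 and 154.6 TPM in WT and did not pass (adjusted p = 0.992). AGRN next to ISG15 and TRAIP next to UBA7 did not pass either (adjusted p = 0.819 and 0.127).

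Replicate 2 was the lowest of its line in both lines for UBE2L6 and UBA7 and for 5 of the 11 genes in the list of ubiquitin and ubiquitin-like modifiers. The same held for 4 of 5 ISGF3 and IRF genes and 3 of 7 other proteases. It held for 1 of 8 other E1 genes and 0 of 4 other HERC genes. The share over all tested genes was not counted. FAU, which encodes a ubiquitin-like fusion protein, was at 177, 55.8 and 208 TPM in DKO1 and 139, 97.3 and 135 TPM in WT. ISG15 was also lowest of the DKO1 samples in replicate 2, but lowest of the WT samples in replicate 3. Without replicate 2 of both lines the log2 fold change of ISG15 was 1.37 (limma adjusted p = 0.00891). There too ISG15 was tested only through its DKO1 values, so this p-value adds no support.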
